A study of Mus musculus with 4 samples.

Results

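The pluripotency transcription factors Pou5f1, Nanog, Sox2, Klf2, Klf4, Klf5, Esrrb, Tbx3, Zfp42 and Sall4 were read by their gene symbols from expression tables of mouse early blastocysts. They are 10 of 23235 symbols, and all 10 were found in every table. Embryos made by nuclear transfer from a somatic cell (SCNT), where the oocyte's own nucleus is exchanged for the donor's, were compared with embryos made by in vitro fertilization (IVF). Each group had 2 libraries, each from 6 whole embryos pooled at 96 hours after activation or fertilization. SCNT embryos received nuclei of embryonic fibroblasts (MEFs) heterozygous for an Xist knockout, obtained by mating knockout females of 129S1/SvImj background to CAST/EiJ males, and B6D2F1/J females supplied the oocytes. IVF embryos came from Xist knockout oocytes (129S1/Svj background) fertilized by wild-type CAST/EiJ sperm, so the knockout of Xist, the RNA that silences an X chromosome, entered both groups from the 129S1 mother. The headers of the SCNT tables also carry the name of Kdm4d, a histone H3K9 demethylase gene; the labels do not mention it, and any such treatment cannot be told apart from the SCNT procedure here. The way the embryos were made, the source of the oocyte and the donor nucleus also cannot be told apart.

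The inner cell mass of the blastocyst gives rise to the embryo, and its cells can form every tissue of the body. That state rests on a network in which Pou5f1 (the OCT4 protein) and Sox2 bind DNA side by side and, with Nanog, activate one another and a shared set of targets. Klf2, Klf4, Klf5, Esrrb and Tbx3 sustain the network in mouse embryonic stem cells, some of them in response to LIF or WNT signals. Sall4 acts with Pou5f1 and Nanog, and Zfp42 (REX1) is a target gene widely used as a marker of the naive state. In SCNT, the donor nucleus has to switch Pou5f1, Nanog and Sox2 on again, since fibroblasts keep them silent. The donor fibroblasts were not among the libraries, so the state of the other factors in them is not known here.

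The promoter letters below hold matches to DNA elements that proteins of this network or their families can bind. They come from RefSeq promoter windows (GRCm38.p6), which reach from 250 bases before a transcript start to 50 after it; 7 of the 10 factors had such a window. The Nanog stretch (chr6:122707389-122707452, plus strand) is shown because it holds, in capitals, the composite element for OCT4 and SOX2. The Zfp42 stretch (chr8:43307163-43307220, minus strand) is shown for an octamer, the letters that POU proteins bind, and the Pou5f1 stretch (chr17:35505962-35506017, plus strand) for a GC box, which SP and KLF proteins bind. Each is printed in the direction of its gene.
Nanog: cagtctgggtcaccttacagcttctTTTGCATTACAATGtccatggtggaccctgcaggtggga
Zfp42: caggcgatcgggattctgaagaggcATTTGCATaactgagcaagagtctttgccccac
Pou5f1: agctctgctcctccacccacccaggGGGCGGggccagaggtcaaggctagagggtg

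The composite was searched on both strands as TTTGCAT, 1 base of any kind and ACAATG. It lies 75 to 62 bases before a start of Nanog, and 151 to 138 bases before another start of the gene. These letters were written after the known element of Nanog, so that Nanog was the 1 gene of 27025 with a window to hold them is no finding. The octamer ATGCAAAT lies on the opposite strand to Zfp42, 186 to 179 bases before its start, and 1.97% of those genes hold one. The GC box GGGCGG lies 45 to 40 bases before a start of Pou5f1 and is common, in 38.2% of genes and in 5 of the 7 factors with a window (Pou5f1, Sox2, Klf2, Klf4 and Zfp42). As a check on the starts, bases just after them were sought in GENCODE transcripts of the same gene. The bases were found for Pou5f1 and for a start of Nanog, but not for the other Nanog start or for Zfp42. The matches to DNA elements describe the letters only, and no binding was measured.

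All 10 factors were expressed in both groups. The ratio of the SCNT mean to the IVF mean lay between 0.879 and 1.14 for 9 factors and was 1.62 for Esrrb. The values are taken to be FPKM, fragments scaled to transcript length and to the mapped total, and the unit is inferred. Levels of different genes are compared on that scale only. Biases particular to a gene, such as those from amplifying the cDNA, were not tested. Summed over the 10 factors, the level was 802 and 798 FPKM in the SCNT libraries, against 787 and 784 FPKM in the IVF libraries. That sum rests mostly on Klf5, Zfp42, Pou5f1 and Nanog. Klf5 and Zfp42 stood highest, with means over the 4 libraries of 192 and 186 FPKM, and Esrrb lowest, with 4.98 FPKM. None of the 10 passed the test between groups (limma on log2(FPKM + 1), Benjamini-Hochberg adjusted p under 0.05 over 11039 genes), where 0.127% of all genes passed. None had an unadjusted p under 0.05 either, against 7.09% of all genes. Not passing does not show that the levels were alike: on the scale of FPKM + 1, the 95% intervals reached down to 0.571-fold for Nanog and up to 1.72-fold for Sall4 and 2.56-fold for Esrrb.

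**Figure D1:**
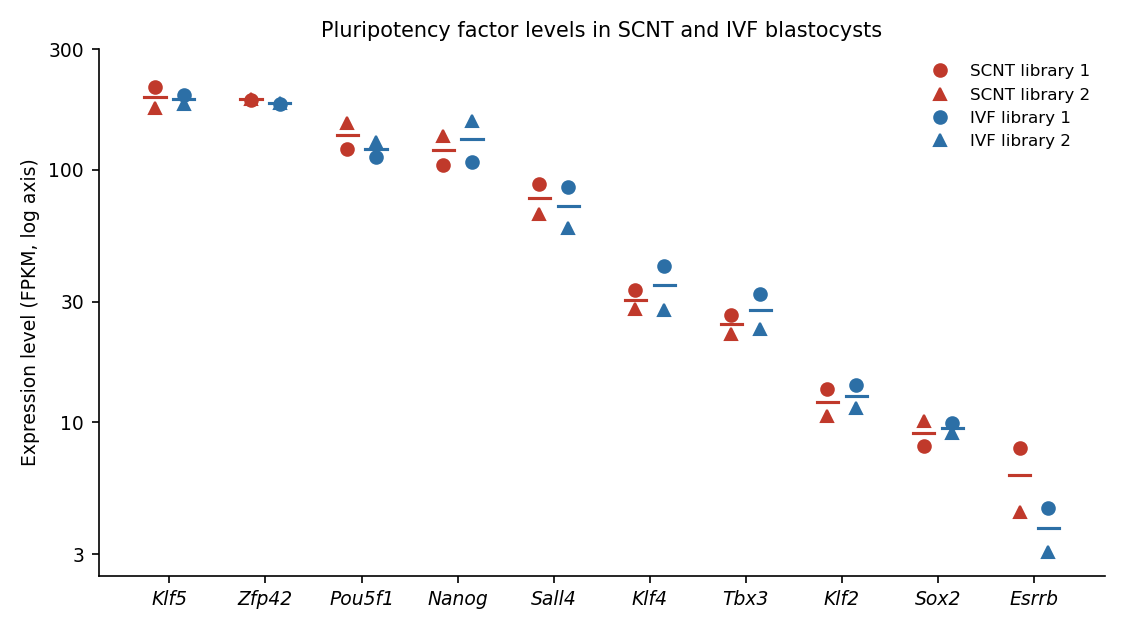
Level of each pluripotency factor in every library (FPKM, log axis), SCNT left of IVF within each gene; circles are libraries numbered 1, triangles libraries numbered 2, and bars the mean of each group. The order runs from Klf5 at a mean of 192 FPKM to Esrrb at 4.98 FPKM, and the groups overlap for every factor except Zfp42.

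The libraries were similar in summed FPKM and in the number of genes reaching 1 FPKM. FPKM summed to between 933167 and 985197 per library, and between 10802 and 10923 genes reached 1 FPKM. Because FPKM is already scaled to the mapped total, these sums do not show library size. The number of genes listed at exactly 0 split by replicate number instead of by group, with 6505 in SCNT library 1 and 6527 in IVF library 1, against 5212 in SCNT library 2 and 5716 in IVF library 2. Differences within each number (SCNT 1 minus IVF 1, and SCNT 2 minus IVF 2) are therefore given beside the group differences of the 10 factors, and for some other genes. MicroRNA, small nucleolar and other short RNA genes held 9.50% and 9.73% of summed FPKM in the SCNT libraries and 12.4% and 12.2% in the IVF libraries; their part in the differences below was tested only by leaving them out, which turned the sign of Klf5 alone among the 10 factors. Read counts were not among the values, which leaves depth unknown and allows no counting error. The labels do not say whether replicate libraries had different parents or days, so p-values cover the spread of these 4 libraries alone, and that spread may be technical.

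Pou5f1, the POU-domain factor required for a pluripotent inner cell mass, had 120 and 154 FPKM in the SCNT libraries, against 112 and 128 FPKM in the IVF libraries. The SCNT library numbered 2 was the highest of the 4, and the groups overlapped. The difference was 0.18 ± 0.21 (SE) on the log2(FPKM + 1) scale, with a 95% interval of -0.36 to 0.72 (limma adjusted p = 0.9996), and it was 0.10 within number 1 and 0.26 within number 2. It was 0.0035 without SCNT library 2, 0.08 without IVF library 1, 0.27 without IVF library 2 and 0.35 without SCNT library 1.

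Sox2, the HMG-box partner of OCT4 that is confined to the inner cells of the blastocyst, had 8.03 and 10.1 FPKM in SCNT, against 9.93 and 9.03 FPKM in IVF. The SCNT libraries lay on either side of both IVF libraries. The difference of -0.07 ± 0.19 (95% interval -0.56 to 0.42, limma adjusted p = 0.9996) was -0.28 within number 1 and 0.14 within number 2. Sox2 lies within the long non-coding gene Sox2ot on the same strand, so reads of the pair may be shared; Sox2ot was listed at 0.433 and 0.605 FPKM in SCNT, against 0.387 and 0.598 FPKM in IVF.

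Nanog, the homeobox factor that marks the epiblast within the inner cell mass, had 104 and 136 FPKM in SCNT, against 107 and 156 FPKM in IVF. In both groups the library numbered 2 was higher, by 0.38 in SCNT and by 0.54 in IVF on the log2 scale, which is more than the group difference of -0.12 ± 0.27 (95% interval -0.81 to 0.57, limma adjusted p = 0.9996). The difference was -0.04 within number 1 and -0.20 within number 2. Counting only symbols that add a -ps or -rs ending to the gene's own, RefSeq names 2 pseudogene copies of Nanog, 5 of Pou5f1 and 1 of Zfp42. Copies under other symbols were not counted, and no source used here says how reads shared with any copy were divided. The entry Nanogpd, which such a count cannot reach, is described under other observations.

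Zfp42, the zinc-finger protein REX1, varied least. It had 188 and 191 FPKM in the SCNT libraries, against 182 and 184 FPKM in the IVF libraries. It was the only factor of the 10 whose groups did not overlap, while 33.4% of all genes tested did not overlap. Its difference of 0.05 ± 0.18 (95% interval -0.40 to 0.50, limma adjusted p = 0.9996) was alike within the numbers, at 0.05 and 0.06. The size was small against scaling: rescaling each library by its median ratio left 0.012, and leaving out the short RNA genes left 0.0080.

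Esrrb, an orphan nuclear receptor that the network uses to hold stem cells in the naive state, had the largest difference of the 10. It had 7.90 and 4.42 FPKM in the SCNT libraries, against 4.55 and 3.05 FPKM in the IVF libraries. SCNT library 1 stood above the other libraries, while SCNT library 2 fell just under IVF library 1, so the groups overlapped. The difference was 0.55 ± 0.31 (95% interval -0.25 to 1.35), 0.68 within number 1 and 0.42 within number 2, and it did not pass (limma adjusted p = 0.888, unadjusted p = 0.138). Without SCNT library 1 it was 0.19, without SCNT library 2 it was 0.91, without IVF library 1 it was 0.78 and without IVF library 2 it was 0.32. Esrrb is also expressed in extraembryonic ectoderm, a derivative of the trophectoderm, and in whole embryos its source cannot be told apart.

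**Figure D2:**
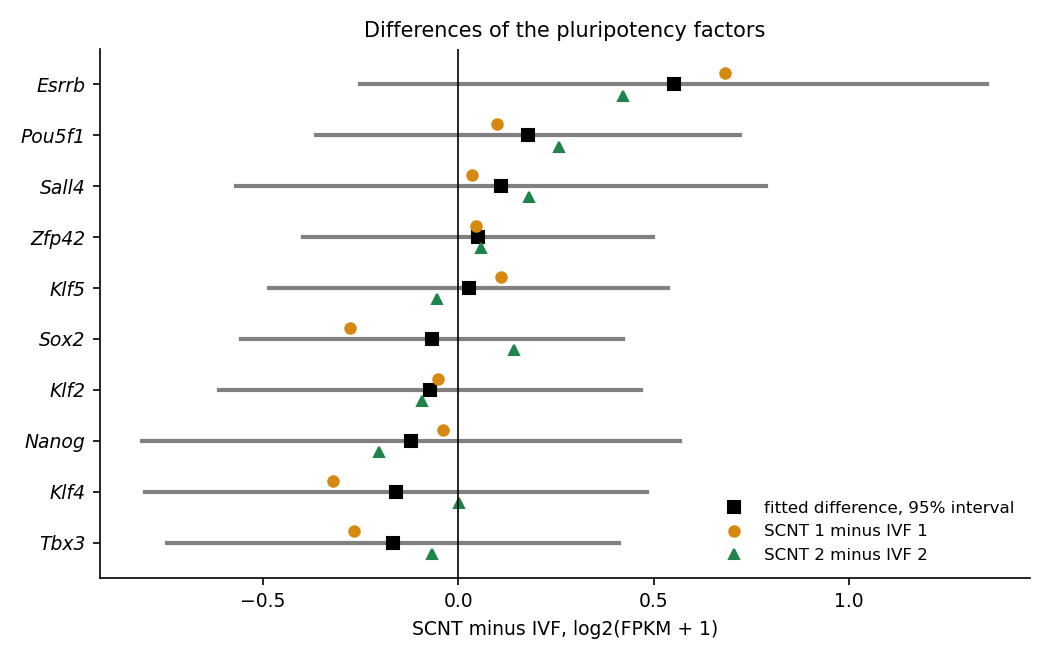
SCNT minus IVF difference of each factor on the log2(FPKM + 1) scale: squares are fitted differences with their 95% limma interval as grey lines, circles the difference within replicate number 1 and triangles within number 2. All 10 intervals contain 0, with Esrrb at 0.55 the farthest from it and Tbx3 at -0.17 the lowest.

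The Krüppel-like factors Klf2, Klf4 and Klf5 bind similar GC-rich letters through related zinc fingers and cover for one another in mouse embryonic stem cells. Klf5, which also acts in the trophectoderm, had 213 and 175 FPKM in SCNT, against 197 and 182 FPKM in IVF, with a difference of 0.03 ± 0.20 that was 0.11 within number 1 and -0.05 within number 2. Klf4 had 33.2 and 28.0 FPKM in SCNT, against 41.7 and 27.9 FPKM in IVF, and IVF library 1 stood above the rest. Its difference of -0.16 ± 0.25 was -0.32 within number 1 and 0.0023 within number 2. Klf2 had 13.5 and 10.6 FPKM in SCNT, against 14.04 and 11.4 FPKM in IVF, with a difference of -0.07 ± 0.21 that was -0.05 within number 1 and -0.09 within number 2. All 3 were higher in the libraries numbered 1 than in those numbered 2 in both groups, and each had a limma adjusted p of 0.9996.

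Klf5 had most of the FPKM of the trio in both groups. It made up 82.0% and 82.0% of their summed FPKM in SCNT, against 78.0% and 82.3% in IVF. Klf4 made up 12.8% and 13.1% in SCNT, against 16.5% and 12.6% in IVF, and Klf2 made up 5.21% and 4.96% in SCNT, against 5.55% and 5.14% in IVF. The groups overlapped for all 3 shares, with exact permutation p = 1.0 for Klf5, 1.0 for Klf4 and 0.667 for Klf2 (two-sided, all 1.0 after Benjamini-Hochberg adjustment over the 3). With 2 libraries against 2 that test cannot go below 0.333. Without IVF library 1 the share differences of Klf4 and Klf5 turned sign, to 0.329 and -0.275 percentage points from -1.61 and 1.87.

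Tbx3, a T-box factor downstream of LIF signalling, had 26.5 and 22.3 FPKM in SCNT, against 32.1 and 23.4 FPKM in IVF. IVF library 1 was the highest and SCNT library 2 the lowest, and the groups overlapped. The difference was -0.17 ± 0.23 (limma adjusted p = 0.9996), -0.27 within number 1 and -0.07 within number 2. Sall4, a zinc-finger repressor that works with the NuRD complex, had 87.5 and 66.7 FPKM in SCNT, against 85.3 and 58.7 FPKM in IVF. Its difference was 0.11 ± 0.26 (limma adjusted p = 0.9996), 0.04 within number 1 and 0.18 within number 2. The noncoding gene Tbx3os1 overlaps Tbx3, and Gm14261 overlaps Sall4, on the opposite strand in each case, and no source used here says whether reads were counted by strand.

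The sign of most of these differences depended on a single library. Leaving out IVF library 1 turned Klf2 to 0.07, Klf4 to 0.12 and Tbx3 to 0.05. Leaving out IVF library 2 turned Nanog to 0.15, Klf5 to -0.03 and Sall4 to -0.16. Leaving out SCNT library 1 turned Nanog to 0.07, Sox2 to 0.08, Klf5 to -0.11 and Sall4 to -0.08, and leaving out SCNT library 2 turned Klf2 to 0.09. Pou5f1, Esrrb and Zfp42 kept a positive sign each time.

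Replicate numbers differed more than groups did. The mean difference between libraries numbered 2 and libraries numbered 1 exceeded the SCNT minus IVF difference in size for 9 of the 10 factors, all except Zfp42, where 59.9% of all tested genes did so. It ran the same way in both groups for 9 factors, all except Sox2, where 72.9% of all tested genes did so. Pou5f1, Nanog and Zfp42 were higher in the libraries numbered 2, Nanog by a mean of 0.46, and Klf2, Klf4, Klf5, Esrrb, Tbx3 and Sall4 were lower there, Esrrb by -0.59 and Sall4 by -0.46. The SCNT minus IVF sign was the same within both numbers for 7 factors (63.9% of all tested genes), positive for Pou5f1, Esrrb, Zfp42 and Sall4 and negative for Nanog, Klf2 and Tbx3. The median difference of the 10 factors was -0.02, against 0.01 over all tested genes.

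The order of the levels was nearly the same in every library. Klf5 and Zfp42 shared the top, each higher than the other in 2 of the 4 libraries. Pou5f1 and Nanog followed, with Pou5f1 higher in 3 libraries, and their ranges overlapped. Sall4, Klf4, Tbx3, Klf2, Sox2 and Esrrb came next in that order in all 4 libraries, and in this run the ranges of Klf4 and Tbx3 over the libraries overlapped while the other neighbours stood apart. Among 23235 symbols Klf5 ranked 645 and 831 in the SCNT libraries, against 665 and 786 in the IVF libraries. Sox2 ranked 6163 and 5464 in SCNT, against 5618 and 5713 in IVF, and Esrrb ranked 6212 and 7689 in SCNT, against 7671 and 8633 in IVF. The level of Sox2 was 6.67% and 6.56% of that of Pou5f1 in the SCNT libraries, against 8.85% and 7.04% in the IVF libraries.

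Comparison with family relatives showed where a pluripotency factor was the highest of the listed genes of its family and where it was not. By the mean over the 4 libraries, Klf5 was the highest of 17 KLF genes, Klf4 the third and Klf2 the fifth. The order below Klf5 changed between libraries: Klf4 was above Klf6, an early-response gene in many cells, in both libraries numbered 1 and below it in both numbered 2, and Klf2 was below Klf3 in SCNT library 2. Klf6 had 30.7 and 36.9 FPKM in SCNT, against 27.9 and 39.7 FPKM in IVF. Klf17, a KLF gene of oocytes and early embryos, averaged 1.08 FPKM over the 4 libraries. Pou5f1 made up 91.5% and 94.4% of the summed FPKM of 9 listed POU genes in SCNT, against 90.6% and 93.1% in IVF. Zfp42, a relative of the ubiquitous factor Yy1, made up 86.5% and 86.1% of its family of 3 in SCNT, against 84.6% and 85.8% in IVF; Yy1 itself had 28.0 and 28.3 FPKM in SCNT, against 31.5 and 28.1 FPKM in IVF.

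**Figure D3:**
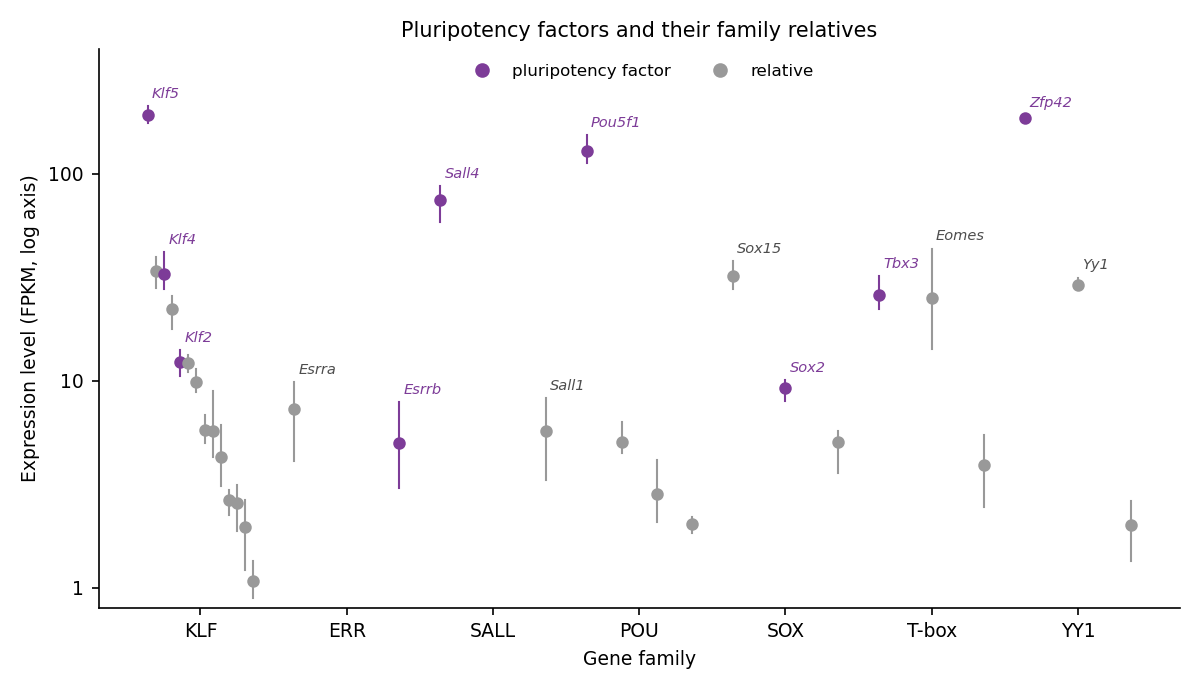
Mean level over the 4 libraries (points, FPKM on a log axis) and range over libraries (vertical lines) of the pluripotency factors in purple and of their relatives in grey, by gene family, for genes with a mean of at least 1 FPKM. Klf5, Sall4, Pou5f1 and Zfp42 have the highest mean among the listed genes of their families. By the mean Tbx3 at 26.1 FPKM is just above Eomes at 25.2 FPKM, but Eomes is higher in both SCNT libraries and lower in both IVF libraries. Sox15 at 32.0 FPKM stands above Sox2 at 9.27 FPKM and Esrra at 7.34 FPKM above Esrrb at 4.98 FPKM.

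Sox2 was not the highest of the 6 listed SOX genes, nor Esrrb the highest of the 3 estrogen-related receptors. The SOX list did not cover the whole family. Sox15, a SOX gene also expressed in trophoblast, had 37.8 and 34.1 FPKM in SCNT, against 27.7 and 28.3 FPKM in IVF. Sox2 made up 16.3% and 20.4% of the summed FPKM of 6 listed SOX genes in SCNT, against 22.9% and 20.95% in IVF. Esrra, a receptor that drives mitochondrial genes in many tissues, was higher than Esrrb in all 4 libraries, and Esrrb made up 44.5% and 41.5% of the 3 receptors in SCNT, against 33.2% and 42.6% in IVF. Esrrg was listed at or near 0 in every library.

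The share of Tbx3 among T-box genes was lower in both SCNT libraries. It was 36.5% and 44.2% of the summed FPKM of 9 listed T-box genes in SCNT, against 57.2% and 53.6% in IVF. The difference of -15.1 percentage points went with Eomes, a T-box gene of the trophectoderm, which had 43.5 and 24.4 FPKM in SCNT, against 18.8 and 14.2 FPKM in IVF. Eomes was above Tbx3 in both SCNT libraries and below it in both IVF libraries. Sall4 made up 93.0% and 88.9% of the SALL family in SCNT, against 94.6% and 94.5% in IVF, beside Sall1, a close relative of Sall4 that can stand in for it in mouse embryonic stem cells, with 6.47 and 8.24 FPKM in SCNT, against 4.79 and 3.32 FPKM in IVF. Groups did not overlap for the shares of Tbx3, Sall4, Sox2 and Zfp42, where the exact permutation p was 0.333, the smallest this design allows; after adjustment over the 9 family shares these p-values were 0.75.

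Regulators of the neighbouring lineages gave a scale that is free of library size. Cdx2, the homeobox factor of the trophectoderm, and Pou5f1 repress each other as the lineages part. The ratio of Pou5f1 to Cdx2 was 3.28 and 5.22 in the SCNT libraries, against 5.62 and 5.90 in the IVF libraries, so both SCNT libraries were below both IVF libraries (difference of log2 ratios -0.48, exact permutation p = 0.333, two-sided, 0.667 adjusted over the 2 ratios). Cdx2 had 36.6 and 29.5 FPKM in SCNT, against 20.0 and 21.7 FPKM in IVF, and did not pass over all genes (limma adjusted p = 0.538), and the ratio moved with Cdx2 while Pou5f1 was slightly higher in SCNT. The difference was -0.78 within number 1 and -0.18 within number 2, and without SCNT library 1 it was -0.14.

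**Figure D4:**
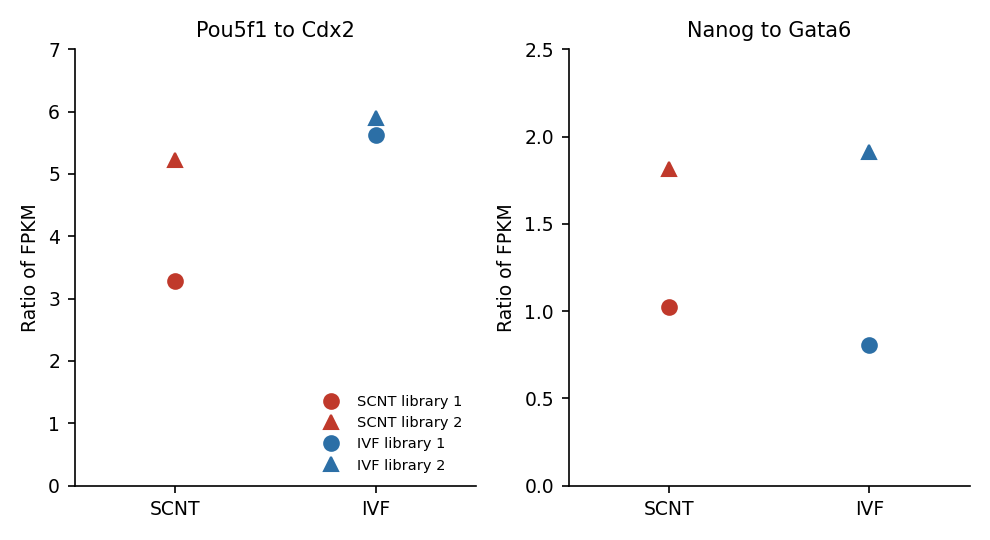
Ratio of Pou5f1 to Cdx2 FPKM (left) and of Nanog to Gata6 FPKM (right) in each library, SCNT left of IVF; circles are libraries numbered 1 and triangles libraries numbered 2. The Pou5f1 to Cdx2 ratio is 3.28 and 5.22 in SCNT and 5.62 and 5.90 in IVF, while the Nanog to Gata6 ratio splits by library number in both groups.

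Nanog and Gata6, the GATA factor of primitive endoderm, mark the choice made within the inner cell mass. The ratio of Nanog to Gata6 was 1.02 and 1.81 in SCNT, against 0.806 and 1.91 in IVF. The IVF libraries enclosed the SCNT values (difference of log2 ratios 0.13, exact permutation p = 1.0, two-sided), and the difference was 0.34 within number 1 and -0.08 within number 2. It turned to -0.49 without IVF library 1 and to -0.28 without SCNT library 2. Gata6 had 102 and 74.9 FPKM in SCNT, against 133 and 81.8 FPKM in IVF. In whole embryos, fewer cells of a type and less RNA per cell cannot be told apart.

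Other transcription factors of the pluripotency network showed estimates in both directions. Of 28 listed, 25 were tested; none passed with limma over all genes, and 1 had an unadjusted p under 0.05, where 7.09% of all genes did. There were 11 higher and 14 lower estimates, and the median difference was -0.04, which turned to 0.16 without IVF library 1 and to 0.09 without SCNT library 2. The gene with the low p was Sall1, with a difference of 0.73 ± 0.23 (limma adjusted p = 0.564), 0.37 within number 1 and 1.10 within number 2. Sox15 differed by 0.35 ± 0.17, Mybl2, a cell-cycle factor, by 0.34 ± 0.24 and Zfp296, a zinc-finger gene of the naive state, by 0.24 ± 0.17. Zfp296 had 56.7 and 54.9 FPKM in SCNT, against 48.0 and 46.1 FPKM in IVF, and Mybl2 had 118 and 111 FPKM in SCNT, against 109 and 74.5 FPKM in IVF. The difference of Mybl2 was 0.11 within number 1 and 0.57 within number 2, and it was 0.07 without IVF library 2 and 0.61 without IVF library 1.

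Genes known to be controlled by OCT4 and SOX2 had more higher than lower estimates. Of 16 listed, 12 were tested, 9 with higher and 3 with lower estimates in SCNT. Over all 11039 tested genes, 5766 had higher estimates. The median difference of the 12 was 0.34, 0.20 within number 1 and 0.38 within number 2. It was 0.17 without IVF library 2 and 0.20 without SCNT library 1. Markers of trophectoderm and primitive endoderm had medians of 0.31 and 0.34 in the same comparison. None passed over all genes with limma, and 2 had an unadjusted p under 0.05, both higher, where 4.25% of all genes had such a p and were higher. These were Spp1, which encodes the secreted protein osteopontin, and Tdh, threonine dehydrogenase. Spp1 had 87.0 and 97.7 FPKM in SCNT, against 44.2 and 49.6 FPKM in IVF (difference 0.96 ± 0.18, limma adjusted p = 0.317), and Tdh had 15.1 and 11.9 FPKM in SCNT, against 8.08 and 6.95 FPKM in IVF (0.76 ± 0.20, limma adjusted p = 0.489). Tdgf1, a co-receptor for Nodal, had 90.2 and 61.5 FPKM in SCNT, against 54.7 and 39.1 FPKM in IVF, and Gdf3, a ligand of the same pathway, had 16.1 and 18.7 FPKM in SCNT, against 14.2 and 12.8 FPKM in IVF. Groups did not overlap for 6 of the 12, all higher in SCNT (18.3% of all tested genes).

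Genes of the later, formative and primed epiblast were mostly not expressed. Of 13 listed, 11 stayed under 1 FPKM in every library, and Otx2 and Dnmt3b were tested. Otx2, a homeobox factor of the formative state, had 2.1975 and 4.08 FPKM in SCNT, against 5.64 and 3.55 FPKM in IVF (difference -0.45 ± 0.32, limma adjusted p = 0.935). That difference was -1.05 within number 1 and 0.16 within number 2, and it was -0.11 without SCNT library 1, -0.17 without IVF library 1, -0.72 without IVF library 2 and -0.78 without SCNT library 2. Dnmt3b, a de novo DNA methyltransferase, had 71.1 and 54.5 FPKM in SCNT, against 75.9 and 52.7 FPKM in IVF.

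The LIF and STAT3 pathway feeds Klf4 in mouse embryonic stem cells. All 11 listed genes were tested, 7 with higher and 4 with lower estimates, where 5766 of all 11039 tested genes had higher ones. The median of the list was 0.18. None of the 11 passed with limma, and 1 had an unadjusted p under 0.05, where 7.09% of all genes did. The median was 0.30 without IVF library 1, 0.022 without IVF library 2 and 0.076 without SCNT library 1. The gene with the low p was Socs3, the feedback inhibitor that STAT3 induces, with 5.89 and 2.69 FPKM in SCNT, against 1.28 and 2.05 FPKM in IVF (difference 0.93 ± 0.36, limma adjusted p = 0.685). Its difference was 1.60 within number 1 and 0.27 within number 2, and it was 0.48 without SCNT library 1. Lif itself had 4.85 and 3.31 FPKM in SCNT, against 3.33 and 1.96 FPKM in IVF, the kinase gene Jak1 had 26.1 and 17.2 FPKM in SCNT, against 18.7 and 13.96 FPKM in IVF, and Pim1, a kinase gene that STAT3 induces, had 7.97 and 7.23 FPKM in SCNT, against 11.1 and 8.81 FPKM in IVF.

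Markers of the other cells in or around the blastocyst were read for the same libraries, and their part in the values of the 10 factors was not tested. All 16 trophectoderm markers were tested, 13 with higher estimates, where 5766 of all 11039 tested genes had higher ones. The markers had a median difference of 0.31, which was 0.057 without SCNT library 1 and 0.18 without IVF library 2. Their summed level, mostly from the keratin genes Krt8 and Krt18, was 7590 and 5471 FPKM in SCNT, against 5339 and 4829 FPKM in IVF. Elf5, a trophoblast transcription factor, had 17.9 and 9.50 FPKM in SCNT, against 3.23 and 3.88 FPKM in IVF, and the membrane protein gene Tspan8 had 434 and 394 FPKM in SCNT, against 176 and 220 FPKM in IVF. The 3 lower estimates were Hand1 at -0.35, Tfap2c at -0.21 and Tead4 at -0.08, all transcription factors of this lineage. Of 15 primitive endoderm markers 12 were tested, 8 with higher estimates, and the median difference was 0.34, 0.09 within number 1 and 0.56 within number 2. It was 0.13 without IVF library 2 and 0.56 without IVF library 1. The list summed to 437 and 399 FPKM in SCNT, against 424 and 319 FPKM in IVF. Sparc and Lama1, both basement membrane genes, differed by 1.16 and 0.69, and Gata4, a GATA factor of this lineage, by 0.62. Srgn, a proteoglycan gene, had 9.85 and 23.6 FPKM in SCNT, against 5.31 and 5.75 FPKM in IVF, and its difference of 1.33 was 0.73 without SCNT library 2. The 4 lower estimates were Gata6 at -0.25, Col4a1 at -0.14, Dab2 at -0.07 and Sox17 at -0.04. In both lists 4 genes had an unadjusted p under 0.05, all higher, where 4.25% of all genes had such a p and were higher, and none passed over all genes with limma.

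Donor and follicle cell markers were low. Of 14 fibroblast markers 11 stayed under 1 FPKM in every library, and Twist2 and S100a4 were listed at 0. The list summed to 12.6 and 6.45 FPKM in SCNT, against 8.55 and 6.13 FPKM in IVF. Vim, an intermediate filament gene that other cells also express, had 6.09 and 4.996 FPKM in SCNT, against 4.97 and 4.34 FPKM in IVF. The collagen gene Col1a1 had 3.38 and 0.193 FPKM in SCNT, against 0.730 and 0.0846 FPKM in IVF, so SCNT library 1 stood above the rest. Col1a2 and Col3a1 were also highest in that library, with 0.955 and 0.715 FPKM. Other markers of the list went the other way. Twist1 had 0.521 and 0.658 FPKM in SCNT, against 1.57 and 1.10 FPKM in IVF. Thy1 had 0.374 and 0.133 FPKM in SCNT, against 0.578 and 0.386 FPKM in IVF. Of 12 markers of cumulus and granulosa cells, which surround the oocyte, 11 stayed under 1 FPKM in every library, with Ptx3, Amh and Cyp19a1 listed at 0; Amhr2, the receptor of anti-Müllerian hormone, had 8.30 and 11.2 FPKM in SCNT, against 7.36 and 4.57 FPKM in IVF.

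Genes with the profile most like a core factor were sought among 5618 genes with a mean of at least 10 FPKM, by the Euclidean distance between log2(FPKM + 1) values over the 4 libraries, each centred on its mean. The nearest to Pou5f1 were Aurkaip1 at a distance of 0.0241, Zfp511 and Sssca1. The nearest to Nanog were Lancl1 at 0.0343, C330013F16Rik and Pibf1, and the nearest to Sox2 were Tmem222 at 0.0502, Lgals8 and Ndfip2. Over so few libraries such closeness describes these values only. The search was made for these 3 factors alone, and Sox2 and Esrrb were under the limit of 10 FPKM as candidates.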

How the data were processed

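RNA-seq tables of 4 libraries (2 SCNT, 2 IVF), grouped by title, were used. The labels' protocols describe cDNA amplified from directly lysed embryos (SMARTer Ultra Low Input), sheared, and built into libraries with NEBNext Ultra DNA. The deposited values were taken to be FPKM; the unit is inferred from the values and from Cufflinks being listed. Tools listed, per the submitters' processing notes, are Bowtie2 2.1.0, Cufflinks 2.2.1 and TopHat2 2.0.14, with build mm9; no source used here names the annotation or filters. Depth is unknown. Ratios of low genes between SCNT library 1 and IVF library 1 gathered at a fragment value 1.04 times higher in the IVF library (11.4% of 3540 genes); the other pairs gave no clear ratio.

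Genes with a mean of at least 1 FPKM over the 4 libraries (11039) entered a limma fit (version 3.58.1, R 4.3.3) of log2(FPKM + 1) on group, using a moderated variance with a mean-variance trend. The pseudocount of 1 understates changes of low genes. The code was tested on simulated data. Ratios and shares were compared by exact permutation, and no set test was run. The 10 factors, the gene lists and the naming rule (all factors, the 3 highest relatives, up to 4 genes of smallest p per other list) were chosen with earlier results of these data known. The family shares, and other genes named outside that rule, were chosen after seeing the data. Alternatives changed the pseudocount, filter, scaling, prior, trend, replicate block and short RNA genes, or left out 1 library. Promoter windows and gene names are from RefSeq (GRCm38.p6), and no coordinates were joined to the mm9 values.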

Additional observations from a re-analysis of the deposited data

How the results depend on the processing

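None of the 10 factors, and no gene of the other lists, was called by limma under any of the 14 alternatives (Esrrb fell below the filter at 5 FPKM). The lowest adjusted p of a factor was 0.204, for Esrrb with the replicate block (unadjusted p = 0.0172), and its unadjusted p without SCNT library 2 was 0.0446 (adjusted 0.914). The median difference of the factors ranged from -0.0797 to 0.0759. The 14 genes called over all genes became 6 without short RNA genes and 36 to 43 with 1 library left out, where a lone library is assumed to vary like the others. Klf5 turned to -0.012 under median-ratio scaling and to -0.016 without short RNA genes, and Klf6 to -0.025 and -0.030. With each library left out in turn, log2 differences ranged from -0.234 to 0.0901 for Klf2, -0.440 to 0.123 for Klf4, -0.113 to 0.167 for Klf5, -0.393 to 0.151 for Nanog, -0.157 to 0.375 for Sall4, -0.214 to 0.0806 for Sox2 and -0.387 to 0.0541 for Tbx3. Among other genes they ranged from -0.234 to 0.259 for Klf6, -0.281 to 0.237 for Dnmt3b, -0.157 to 0.00245 for Yy1, -0.598 to 0.0936 for Gata6 and -0.199 to 1.677 for Col1a1. The log2 ratio of Nanog to Gata6 differed by -0.490 to 0.756. In percentage points, the share of Klf4 in the trio ranged from -3.54 to 0.329 and that of Klf5 from -0.275 to 4.01; family shares ranged from -3.05 to 0.138 for Klf4, -2.24 to 1.33 for Klf5 and -0.374 to 2.55 for Pou5f1. The cause of these shifts was not tested. The labels do not pair libraries of the same number, whose deviations from the group means had a correlation of 0.309 over 11039 genes. The replicate block gave 20 calls, and 1832 genes at an unadjusted p under 0.05 against 783 without it.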

Other observations

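A separate entry, Nanogpd, which shares the stem of its symbol with Nanog, was listed at 11.3 and 3.82 FPKM in SCNT libraries 1 and 2, against 11.7 and 2.66 FPKM in IVF libraries 1 and 2. Nanogpd split by library number in both groups, in the direction opposite to Nanog, and was chosen after its values were seen. Whether it is a copy of Nanog, and whether reads were shared between the entries, was not tested.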
